A study of Mus musculus with 6 samples.

Results

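The collagen VI chains are encoded in the mouse by Col6a1, Col6a2, Col6a3, Col6a4, Col6a5 and Col6a6. All 6 genes were found by symbol among the 29752 genes of each aortic expression file. They were compared between 3 libraries of wild-type C57BL/6 mice and 3 libraries of C57BL/6 mice heterozygous for Palmd (PALMD+/-), the gene of the paralemmin relative palmdelphin. The mice of both groups were 15 weeks old and had eaten a normal diet for the last 7 weeks, having been 8 weeks old at its start. The labels do not say how the Palmd allele was made, or whether separate animals were used for the libraries, so the spread between libraries may be partly technical. The family was selected on its name after Col6a6 had been seen to differ between these same groups, so the differences between genotypes below are a description and not independent evidence.

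Collagen VI is a heterotrimer that is built inside the cell from a Col6a1 chain, a Col6a2 chain and a further chain, most often Col6a3. Col6a4, Col6a5 and Col6a6 are related to Col6a3 and can stand in its place. The trimers join into larger units that are secreted and form beaded microfibrils, which lie close to cells and basement membranes and link them to fibrillar collagens. Fibroblasts are the best-known source, fat tissue is rich in the protein, and mutations in the main chains cause inherited muscle disease in people.

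The libraries rested on 17283951 to 18372131 reads each, and genes are given in FPKM, which is reads scaled to the length of the gene and the reads of the library. The mean correlation of each library with the others was 0.930 for heterozygote replicate 2 and 0.960 to 0.971 for the rest. Palmd itself had means of 7.82 ± 2.30 (wild type) and 6.24 ± 0.942 FPKM (heterozygote; SD, n = 3), and the groups overlapped (GRCm38 chromosome 3, 116918258 to 116968987). Reads over the whole gene can come from an altered allele too, so this level does not check the genotype labels. The smooth muscle markers Acta2, Myh11, Tagln, Cnn1, Smtn and Lmod1 of the labelled tissue summed to 4721 to 10179 FPKM. Most of this sum was Acta2, at 3701 to 8368 FPKM, while Tagln was at only 2.12 to 4.29 FPKM, for a reason that was not tested. The 7 white adipocyte markers were also read in every library and summed to 1390 to 4533 FPKM.

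The 6 genes lie at 3 places in the genome (GRCm38, GENCODE release M21), all on the minus strand. Col6a2 (chromosome 10, 76595762 to 76623630) and Col6a1 (chromosome 10, 76708792 to 76726168) are 85.2 kb apart. Col6a3 (chromosome 1, 90765923 to 90843971) stands by itself. Col6a6 (chromosome 9, 105687809 to 105828160), Col6a5 (chromosome 9, 105856078 to 105960643) and Col6a4 (chromosome 9, 105989454 to 106096783) form a cluster with gaps of 27.9 and 28.8 kb. No annotated gene overlaps Col6a1, Col6a2 or Col6a5. Col6a6 shares 63 exon bases with Gm38314 on the other strand, which was not analysed here, and the library kit is not described as keeping strand.

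Promoter windows of 300 bases (250 before and 50 after the start site, RefSeq, GRCm38.p6, minus strand) were found for all 6 genes, 7 windows in all, because Col6a2 has 2 start sites. The windows of Col6a1 and Col6a2, the neighbours with the most similar pattern, of Col6a3, which differs from them, and of Col6a6 are shown. They are chr10:76725995-76726294 for Col6a1, chr10:76623581-76623880 and chr10:76623355-76623654 for Col6a2, chr1:90843922-90844221 for Col6a3 and chr9:105828036-105828335 for Col6a6. Capitals mark the GC box GGGCGG, the AP-1 site TGACTCA and the CT-rich element CCTCCC on either strand. All motifs were chosen after the windows had been seen. The RefSeq start sites of Col6a1, Col6a3 and Col6a6 lie 124, 19 and 75 bases from the starts of their principal GENCODE transcripts. For Col6a2 the upstream site matches that start and the downstream site lies 226 bases from it. Positions in the windows therefore depend on the annotation.
Col6a1: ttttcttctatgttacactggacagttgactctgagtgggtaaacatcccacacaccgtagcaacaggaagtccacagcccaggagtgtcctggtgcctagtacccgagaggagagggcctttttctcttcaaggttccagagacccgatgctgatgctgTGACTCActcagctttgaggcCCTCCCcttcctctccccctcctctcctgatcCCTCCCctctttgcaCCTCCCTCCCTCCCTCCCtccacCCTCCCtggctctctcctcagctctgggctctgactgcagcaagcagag
Col6a2, upstream start site: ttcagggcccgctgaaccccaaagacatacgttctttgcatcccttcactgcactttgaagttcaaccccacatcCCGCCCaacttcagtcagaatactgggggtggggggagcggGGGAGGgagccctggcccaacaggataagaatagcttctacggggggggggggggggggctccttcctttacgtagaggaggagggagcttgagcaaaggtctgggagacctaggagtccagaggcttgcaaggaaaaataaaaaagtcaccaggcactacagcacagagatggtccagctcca
Col6a2, downstream start site: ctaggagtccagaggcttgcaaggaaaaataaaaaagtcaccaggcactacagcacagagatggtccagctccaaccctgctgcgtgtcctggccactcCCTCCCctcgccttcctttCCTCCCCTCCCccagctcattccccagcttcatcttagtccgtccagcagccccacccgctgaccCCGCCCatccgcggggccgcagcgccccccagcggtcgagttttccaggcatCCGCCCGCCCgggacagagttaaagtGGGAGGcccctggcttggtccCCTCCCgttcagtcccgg
Col6a3: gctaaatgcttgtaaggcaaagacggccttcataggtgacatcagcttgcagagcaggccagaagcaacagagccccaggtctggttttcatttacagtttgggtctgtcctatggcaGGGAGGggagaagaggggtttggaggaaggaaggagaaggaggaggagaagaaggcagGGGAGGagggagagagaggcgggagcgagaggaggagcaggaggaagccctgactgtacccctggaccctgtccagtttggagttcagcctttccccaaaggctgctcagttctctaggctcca
Col6a6: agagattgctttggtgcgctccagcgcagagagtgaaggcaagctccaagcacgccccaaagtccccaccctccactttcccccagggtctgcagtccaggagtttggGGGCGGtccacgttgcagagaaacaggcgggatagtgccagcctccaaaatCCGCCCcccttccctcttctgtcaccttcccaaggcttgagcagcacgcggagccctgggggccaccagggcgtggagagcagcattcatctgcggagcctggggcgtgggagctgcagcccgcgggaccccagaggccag
The Col6a1 window held 7 copies of CCTCCC, some overlapping, and 1 copy of TGACTCA, which begins 90 bases before the RefSeq start site, and no GGGCGG. Among all 32851 windows of this length CCTCCC was present in 42.4%, TGACTCA in 5.20% and GGGCGG in 35.7%. The downstream window of Col6a2 held 5 copies of CCTCCC and 3 of GGGCGG, and the upstream window 1 of each. The Col6a3 window had 2 copies of CCTCCC and no GGGCGG. The Col6a6 window had 2 copies of GGGCGG and no CCTCCC, and Col6a5 had 1 GGGCGG and no CCTCCC. None of the 7 windows held TATAAA, found in 13.6% of all windows, or the E-box CACGTG, found in 7.15%. CCAAT (37.4% of all windows) was matched in the Col6a4 window alone and the nuclear receptor half-site AGGTCA (16.3%) in that of Col6a5 alone, both on either strand. The GC content was 65.0% for Col6a6 and 56.3% to 64.3% for the windows of Col6a1, Col6a2 and Col6a3, against a median of 52.7% over all windows. These matches describe letters and say nothing of binding.

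Col6a1, Col6a2 and Col6a3 carried nearly all of the collagen VI signal. For Col6a1 wild type replicates 1 to 3 had 170, 183 and 171 FPKM, and heterozygote replicates 1 to 3 had 269.9, 176 and 275 FPKM. These orders hold for all values that follow. Heterozygote replicates 1 and 3 lay above every wild-type library, and heterozygote replicate 2 lay among them. The means were 175 ± 7.04 and 240.1 ± 55.8 FPKM (SD, n = 3), a ratio of heterozygote to wild type of 1.38. In bulk tissue a change in the number of cells of a type and a change in RNA per cell cannot be told apart.

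For Col6a2, the obligate partner of Col6a1, the wild-type libraries had 99.3, 108 and 100.1 FPKM and the heterozygote libraries 153, 92.0 and 161 FPKM. Again heterozygote replicates 1 and 3 were the highest, while heterozygote replicate 2 was the lowest of all libraries. The means were 103 ± 5.03 and 136 ± 38.0 FPKM, a ratio of 1.32.

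Col6a3 is the long chain from which the peptide endotrophin is released. Its wild-type values were 48.5, 42.4 and 39.9 FPKM and its heterozygote values 53.5, 33.6 and 51.7 FPKM. The same heterozygote libraries were at the top and the same one at the bottom, but the groups were closer. The means were 43.6 ± 4.42 and 46.3 ± 11.0 FPKM, a ratio of 1.06. Without heterozygote replicate 2 the ratios to wild type were 1.56 for Col6a1, 1.53 for Col6a2 and 1.21 for Col6a3.

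**Figure D1:**
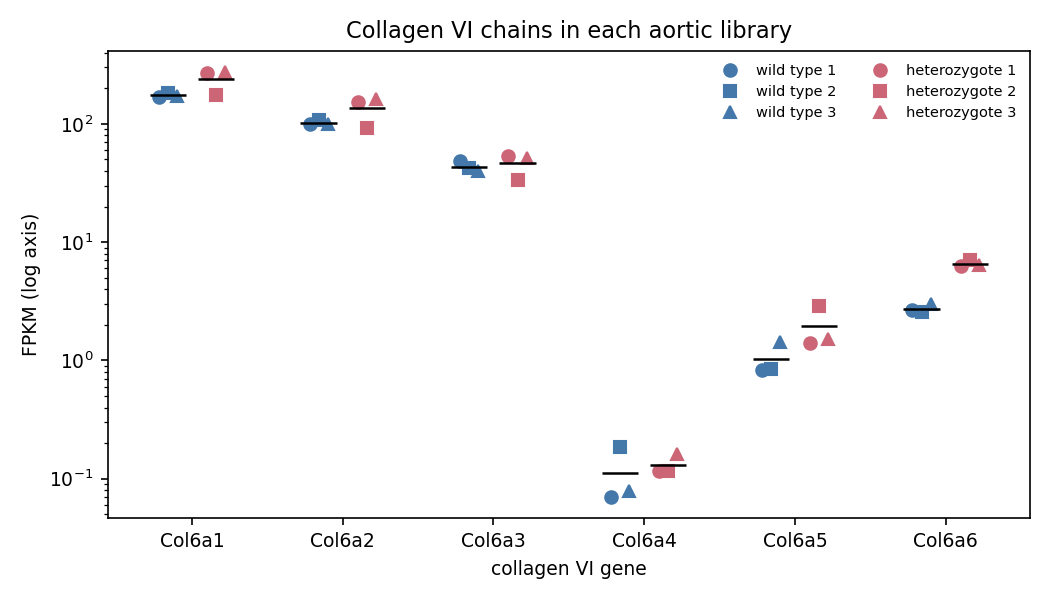
FPKM of the 6 collagen VI genes on a log axis, with wild type in blue, heterozygote in red, a symbol per replicate number and a line at the mean of 3 libraries. Col6a6 is the gene whose groups stand apart, with wild type at 2.55 to 3.01 FPKM and heterozygotes at 6.27 to 7.01 FPKM.

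Col6a6 had 2.67, 2.55 and 3.01 FPKM in the wild-type libraries and 6.27, 7.01 and 6.39 FPKM in the heterozygote libraries. Every heterozygote library lay above every wild-type library, and the lowest heterozygote value was 2.08 times the highest wild-type value. Behind these values stood 448, 430 and 497 reads in wild type and 1049, 1110 and 1069 reads in heterozygotes. The means were 2.75 ± 0.237 and 6.55 ± 0.397 FPKM, a ratio of 2.39. Heterozygote replicate 2 was the highest library for Col6a6. It was the lowest for Col6a2 and Col6a3 and lay among the wild-type libraries for Col6a1.

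For Col6a5, the next gene along the cluster, wild type gave 0.825, 0.844 and 1.43 FPKM and heterozygotes gave 1.41, 2.91 and 1.51 FPKM. Wild type replicate 3 reached the level of heterozygote replicates 1 and 3, so the groups overlapped. The reads were 142, 146 and 243 in wild type and 242, 473 and 259 in heterozygotes. The means were 1.03 ± 0.346 and 1.94 ± 0.839 FPKM, a ratio of 1.88, which was 1.41 without heterozygote replicate 2.

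Col6a4 was barely present, with wild-type values of 0.0706, 0.185 and 0.0782 FPKM and heterozygote values of 0.116, 0.115 and 0.161 FPKM. These values came from 11 to 29 reads, the groups overlapped, and the gene was below the 1 FPKM needed for the test. Col6a4, Col6a5 and Col6a6 are relatives of each other, and how the authors counted reads that fit more than 1 gene is not given in the sources used here, so a part of these low values is uncertain.

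Levels of different chains can be set side by side because FPKM is per length, but the length matters. For Col6a2 the counted length was 8326 bases, 2.11 times the 3949 bases of its principal transcript. Of its 3 annotated transcripts 1 is a retained-intron form, whose bases are part of the counted length. For Col6a1 the counted length was 1.07 times that of the principal transcript, and for Col6a3 1.33 times. On the deposited FPKM scale the order in every library was Col6a1, Col6a2, Col6a3, Col6a6, Col6a5 and Col6a4. With principal transcript lengths, an alternative added after the data were seen, Col6a2 stood above Col6a1 in all 6 libraries, at 216 against 187 on average in wild type and 286 against 256 in heterozygotes. The other chains kept their order.

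The ratio of Col6a2 to Col6a1 FPKM hardly varied. It was 0.584, 0.593 and 0.586 in wild type and 0.569, 0.524 and 0.588 in heterozygotes. The lowest was heterozygote replicate 2, and the groups overlapped. With principal transcript lengths the ratio ran from 1.03 to 1.17, near equal amounts.

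The ratio of Col6a3 to Col6a1 was 0.285, 0.232 and 0.233 in wild type and 0.198, 0.191 and 0.188 in heterozygotes. All 3 heterozygote libraries were below all 3 wild-type libraries, heterozygote replicate 2 included. The means were 0.250 ± 0.0301 and 0.193 ± 0.00514. Gene length cannot move this contrast, since it scales both groups alike. The ratio is a second view of the same libraries and was chosen after its values were seen.

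Among the chains that can take the Col6a3 place, Col6a6 made up 5.14%, 5.55% and 6.78% of the FPKM of Col6a3, Col6a4, Col6a5 and Col6a6 together in wild type. In heterozygotes it made up 10.2%, 16.1% and 10.7%. The heterozygote shares all lay above the wild-type shares, and the highest belonged to the library with the least Col6a3. Since Col6a6 was already known to differ when the family was selected, the separation of its share is not a second result. Col6a5 made up 1.59% to 3.23% in wild type and 2.30% to 6.66% in heterozygotes, with overlap. With principal transcript lengths the mean Col6a6 share was 4.66% in wild type and 10.1% in heterozygotes.

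**Figure D2:**
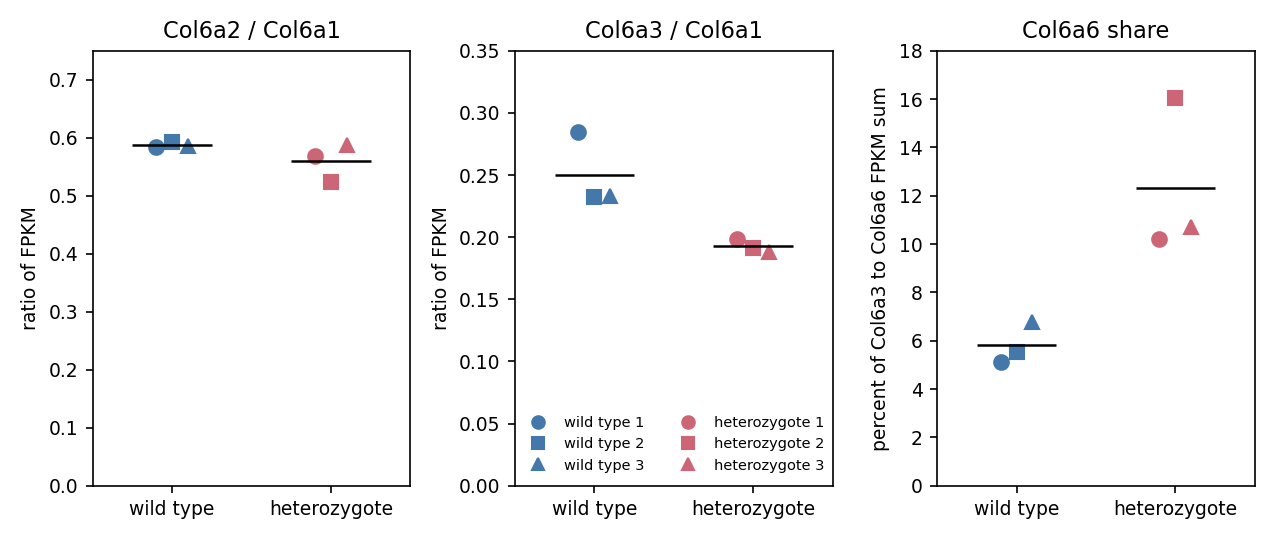
Ratios of FPKM between chains, and the Col6a6 percentage of the summed FPKM of Col6a3 to Col6a6, for each library, with a line at each group mean. Col6a2 to Col6a1 stays between 0.524 and 0.593, while the Col6a6 share is 5.14% to 6.78% in wild type and 10.2% to 16.1% in heterozygotes.

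The fit across all genes called none of the chains. It used limma on log2(FPKM + 1) for the 12620 genes that reached 1 FPKM in 3 or more libraries. Of the 5 chains tested 0 had an adjusted p under 0.05, where the share over all genes was 0.00% (0 genes). The unadjusted p was under 0.05 for 820 genes (6.50%), and limma voom on reads recovered from the values gave 0 genes at the adjusted and 815 at the unadjusted threshold. Of the 5 chains 1, Col6a6, was under the unadjusted threshold. The Col6a6 log2 fold change was 1.01 (SE 0.10, 95% interval 0.78 to 1.24), and 25 of the 12620 genes had a larger positive one. Nothing is read from that place, because this contrast chose the family.

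The log2 fold changes of Col6a1 and Col6a2 were 0.43 (SE 0.21) and 0.36 (SE 0.23), and that of Col6a3 was 0.06 (SE 0.20, 95% interval -0.43 to 0.55). Col6a5 was at 0.51 (SE 0.23) and reached 1 FPKM in 3 heterozygote libraries and 1 wild-type library, so it entered the test mainly through the group in which it was higher. Without heterozygote replicate 2 the values were 0.64 (SE 0.11) for Col6a1, 0.61 (SE 0.10) for Col6a2, 0.27 (SE 0.11) for Col6a3, 0.29 (SE 0.17) for Col6a5 and 0.97 (SE 0.10) for Col6a6. None passed there either (limma adjusted p 0.141 for Col6a6, 0.230 for Col6a1 and Col6a2). Over all tested genes the unadjusted limma p was under 0.05 for 1762 there, against 820 with all libraries. The direction of Col6a3 turned to -0.058 without heterozygote replicate 1, to -0.034 without heterozygote replicate 3 and to -0.0011 without wild type replicate 3.

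**Figure D3:**
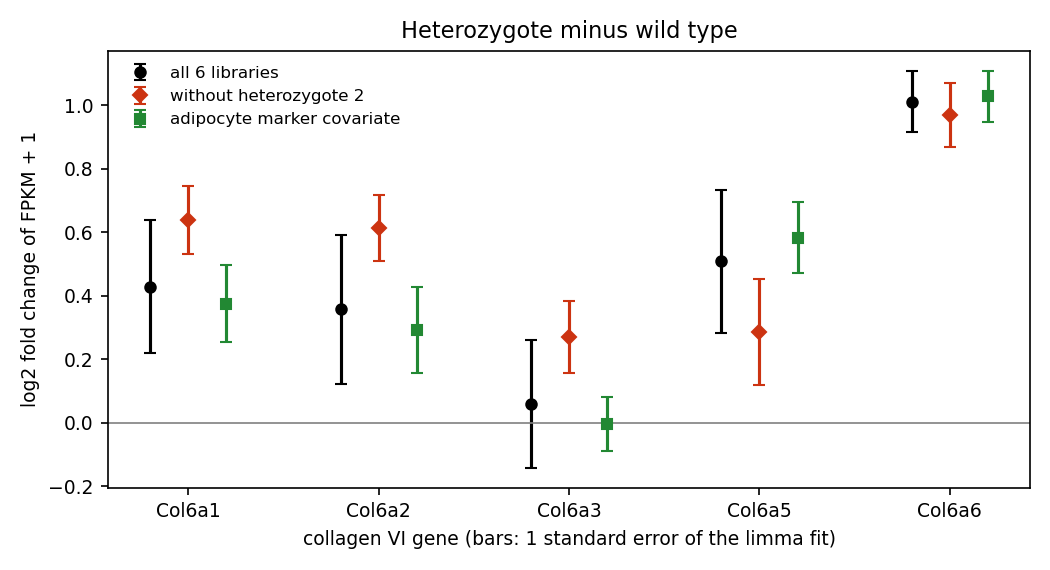
Log2 fold change (heterozygote minus wild type, FPKM + 1) of the 5 tested chains, with bars of 1 standard error, from all 6 libraries, without heterozygote replicate 2, and from a fit that takes the white adipocyte marker level as covariate. Col6a6 stays at 0.97 to 1.03 in these fits, while Col6a3 lies between -0.0051 and 0.27.

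Only Col6a6 had all heterozygote values above all wild-type values, 1 of the 5 tested chains, where 7.80% of all tested genes did. No chain had all heterozygote values below, where 5.12% of all tested genes did.

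Within the family the chains fell into unlike patterns over the libraries. Likeness was measured as the root-mean-square difference of log2(FPKM + 1), after subtracting each gene's mean, over the 6 libraries. It was 0.06 between Col6a1 and Col6a2, and of the 12619 other tested genes only Col5a1 was closer to Col6a1. Col6a3 followed them at a distance of 0.21 from Col6a1 and 0.19 from Col6a2. Col6a5 and Col6a6 were 0.32 apart, and both were 0.39 or more from each of the main chains. All of these share the same libraries, and a small difference also follows from a gene varying little.

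**Figure D4:**
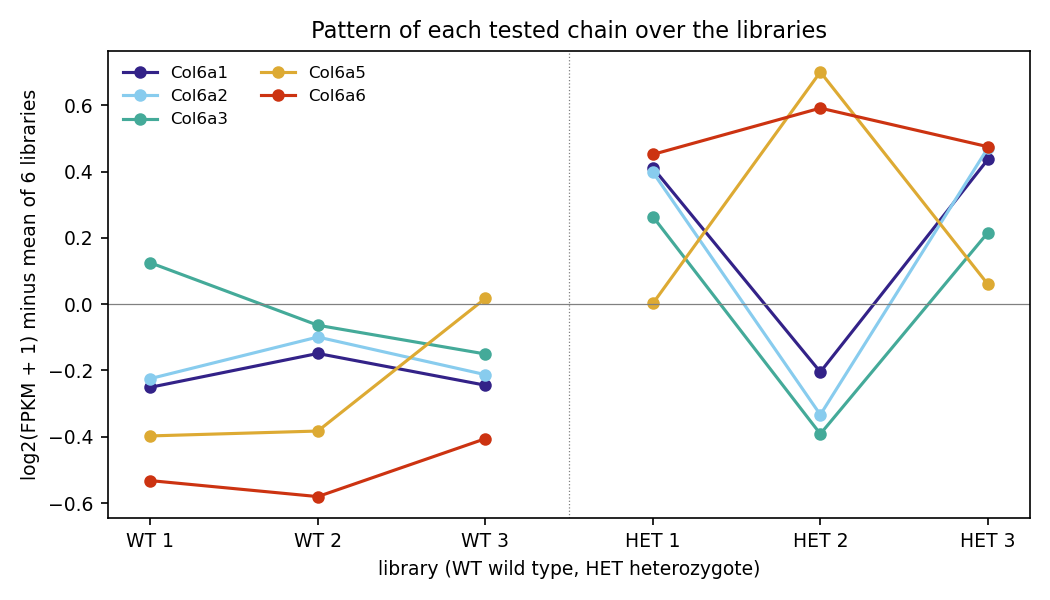
log2(FPKM + 1) of the 5 tested chains minus each gene's mean over the 6 libraries, with lines that only join the points of a gene within a group. In heterozygote replicate 2, Col6a1, Col6a2 and Col6a3 are below their means while Col6a5 and Col6a6 are above theirs.

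The gene closest to Col6a1 was Col5a1, the main chain of the fibril-regulating collagen V, at a difference of 0.014 log2 units. Its wild-type values were 58.0, 60.5 and 57.4 FPKM and its heterozygote values 90.6, 59.3 and 91.5 FPKM, so it had the same high and low libraries as Col6a1. Next after Col6a2 came Adamts2, the enzyme that trims the amino end of fibrillar procollagens (0.07), the sphingosine 1-phosphate receptor S1pr2 (0.07) and the fibril-associated collagen Col16a1 (0.08). For Col6a2 the closest were Adamts2 (0.06), Col6a1, Col5a1, the lysyl oxidase relative Loxl1 and Snx24. For Col6a3 they were the calcium channel subunit Cacnb2, the catenin Ctnna3, Zfp651, Casp12 and Leprot, each at 0.03. Cacnb2 and Ctnna3 were low, at 1.12 to 2.15 and 0.688 to 1.52 FPKM, where the added 1 shrinks differences between libraries.

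Col6a6 had no equally close gene. The closest were Camk2b, a calcium/calmodulin-dependent kinase subunit (0.09), Epm2a, which encodes laforin (0.15), Alkal2, a ligand of ALK receptors (0.15), Trbc2, a T cell receptor constant region (0.19), and the gelatinase Mmp9 (0.19). Camk2b had 1.73, 1.19 and 1.52 FPKM in the wild-type libraries and 3.61, 4.19 and 3.74 FPKM in the heterozygote libraries. Alkal2 had 0.361 to 0.725 FPKM in wild type, so it entered the test only through the heterozygotes. Trbc2 did so mainly, with 0.712, 1.10 and 0.802 FPKM in wild type. All 5 genes closest to Col6a6 had every heterozygote value above every wild-type value. The measure of likeness includes this step between the groups, after which the family was selected. Closeness to Col6a6 is therefore not a separate result. The genes closest to Col6a5 were BC051226 (0.04), the glutamyltransferase relatives Ggt5 (0.09) and Ggt7 (0.10), the proton pump subunit Atp6v0e2 (0.11) and Rogdi (0.11). BC051226 was highest in heterozygote replicate 2, at 4.79 FPKM, and next in wild type replicate 3, at 2.89 FPKM.

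Heterozygote replicate 2 also stood apart in several of its cell type markers. The white adipocyte markers (Adipoq, Lep, Plin1, Cidec, Retn, Cfd and Pck1) gave 1524, 2460 and 3497 FPKM for wild type and 1390, 4533 and 1886 FPKM for heterozygotes. Within wild type, replicate 3 was the highest for this sum and for Col6a5, and within the heterozygotes replicate 2 was. Across the groups the order differed. Heterozygote replicate 1 had the lowest sum, with more Col6a5 (1.41 FPKM) than wild type replicates 1 and 2 (0.825 and 0.844 FPKM). Pck1 was not highest in heterozygote replicate 2, at 235 FPKM against 291 and 296 FPKM in wild type replicates 2 and 3.

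The summed fibroblast markers varied less. The 7 markers (Pdgfra, Dpt, Pi16, Cd34, Lum, Dcn and Scara5) gave sums of 1053 to 1244 FPKM for wild type and 952 to 1495 FPKM for heterozygotes, with the lowest sum in heterozygote replicate 2, which was lowest for Col6a2 and Col6a3 as well. Of the 7 markers 5 (Dpt, Pi16, Cd34, Lum and Dcn) were lowest of all libraries in heterozygote replicate 2, where Cd34 had 31.8 FPKM against 47.9 to 60.1 FPKM in the other libraries. Pdgfra and Scara5 were not, and Pdgfra had 15.4 FPKM there against 14.2 to 17.0 FPKM. Smooth muscle markers gave 7062 to 9940 FPKM for wild type against 9953, 4721 and 10179 FPKM for heterozygotes, and the 5 endothelial markers 640 to 702 FPKM against 652, 190 and 622 FPKM. Of the endothelial markers 4 were lowest of all libraries in heterozygote replicate 2, with Pecam1 at 72.0 FPKM against 352 to 424 FPKM elsewhere. Emcn was not, at 5.43 FPKM against 4.25 to 5.63 FPKM. Brown adipocyte markers (Ucp1, Cidea, Elovl3 and Dio2) gave 182 to 874 FPKM for wild type and 61.6 to 1026 FPKM for heterozygotes. Most of the highest sum, in heterozygote replicate 2, was Ucp1 at 790 FPKM. Dio2 was lowest of all libraries there, at 6.11 FPKM. Chondrocyte markers gave 865 to 998 FPKM against 121 to 976 FPKM, the lowest in heterozygote replicate 2. Nearly all of the chondrocyte sum was Cytl1, at 830 to 950 FPKM in wild type and 779, 101 and 930 FPKM in heterozygotes. Col2a1 was at most 0.164 FPKM and Acan at most 5.49 FPKM. Macrophage markers gave 179 to 226 FPKM against 191 to 263 FPKM, pericyte markers 542 to 759 FPKM against 417 to 629 FPKM. The lymphocyte markers Cd3e, Cd79a and Ms4a1 gave 1.40, 4.14 and 0.785 FPKM for wild type and 2.86, 7.02 and 3.11 FPKM for heterozygotes. All 3 were highest in heterozygote replicate 2, as Col6a6 was, but the groups overlapped through wild type replicate 2. Cd79a, the one tested, had a log2 fold change of 0.80 (SE 0.44). Mesothelial markers summed to at most 1.44 FPKM and striated muscle markers to at most 4.23 FPKM. In none of these marker lists was a marker at 0 in all libraries. In the fit with the adipocyte covariate the log2 fold changes were 1.03 for Col6a6, 0.58 for Col6a5, 0.37 for Col6a1, 0.29 for Col6a2 and -0.0051 for Col6a3. The part of smooth muscle, endothelial, fibroblast and lymphocyte content in the chain levels was not tested.

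**Figure D5:**
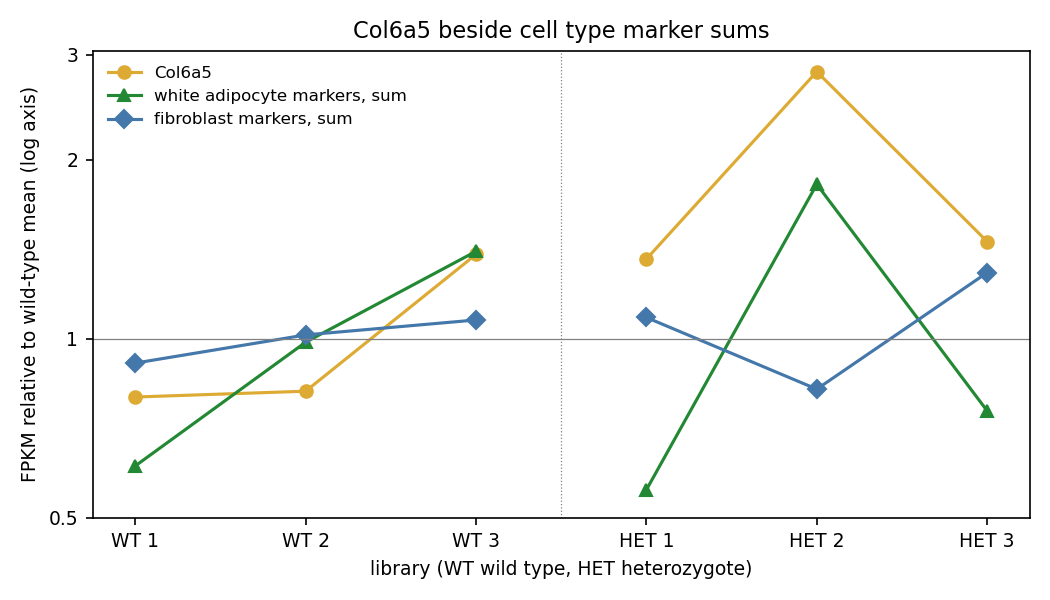
Col6a5 and the summed FPKM of white adipocyte and fibroblast markers in each library, relative to the wild-type mean on a log axis, with lines that only join points within a group. In heterozygote replicate 2 the white adipocyte sum and Col6a5 are both at their highest, 4533 and 2.91 FPKM.

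The genes around the chains were described next. Of 7 tested neighbours within 300 kb of the chromosome 9 cluster other than the chains, log2 fold changes ran from -0.29 to 0.20, all smaller than those of Col6a5 and Col6a6. Pik3r4, which starts 44.8 kb from Col6a6 and encodes a regulatory subunit of a lipid kinase, had means of 4.29 FPKM (wild type) and 4.63 FPKM (heterozygote; log2 fold change 0.09, SE 0.10). Dusp7, a phosphatase of MAP kinases, had all heterozygote values above wild type (0.20, SE 0.10), and the calcium pump Atp2c1 had all below (-0.25, SE 0.09). The 5 tested neighbours of Col6a1 and Col6a2 ran from 0.00084 (Mcm3ap) to 0.62 (Pcbp3, SE 0.56), and the 4 of Col6a3 from -0.43 (Mlph) to 0.24 (Rab17, SE 0.10). Rab17, a small GTPase, also had all heterozygote values above wild type. That makes 2 of 16 neighbours above and 1 below, where 7.80% and 5.12% of all tested genes were. None of these 16 genes was called.

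Cell-surface receptors of collagen VI gave 0 calls among 7 tested of 8 (limma), and in none did the groups fail to overlap. Over all tested genes 0.00% were called, 7.80% had all heterozygote values above wild type and 5.12% all below. The median log2 fold change of the receptors was -0.10, where that of all tested genes was 0.01. Without heterozygote replicate 2 it turned to 0.10, with 0.03 over all tested genes. Antxr1, a receptor that binds collagen VI fragments, was at 20.2 ± 1.14 and 26.9 ± 6.41 FPKM (log2 fold change 0.37, SE 0.18), and its relative Antxr2, whose loss leads to collagen VI build-up in people, at 7.24 ± 0.639 and 8.39 ± 0.522 FPKM. The proteoglycan receptor Cspg4 (NG2) was at 42.0 ± 5.63 and 35.1 ± 6.90 FPKM. For the integrin chains Itga10 and Itga1 the log2 fold change was 0.42 (SE 0.21) and -0.18 (SE 0.13). Without heterozygote replicate 2 the log2 fold changes were 0.56 for Antxr1, 0.65 for Itga10, -0.12 for Itga1 and -0.12 for Cspg4, which was -0.26 with it.

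Matrix partners gave 0 calls among 14 tested of 17, and 4 had all heterozygote values above all wild-type values: Mfap2, Fbn1, Tnxb and Matn2. Over all tested genes 7.80% lay above in this way and 5.12% below. The microfibril protein Mfap2 was at 14.2 ± 1.46 and 29.0 ± 4.50 FPKM, the fibrillin Fbn1 at 23.8 ± 1.87 and 39.3 ± 5.89 FPKM, and the tenascin Tnxb at 37.0 ± 2.65 and 49.2 ± 7.17 FPKM. Matn2, a matrilin that links matrix filaments, was at 21.2 ± 1.54 and 23.7 ± 0.885 FPKM. The log2 fold change of Tgfbi, which binds collagen VI, was 0.27 (SE 0.22), and the median of the list was 0.06. Without heterozygote replicate 2 they were 0.46 and 0.20. Mfap2 and Fbn1 were known from earlier results of these data when the list was written.

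Biosynthesis genes gave 0 calls among 16 tested of 17, with a median log2 fold change of -0.07. P4ha2, a collagen prolyl hydroxylase, was the 1 gene with all heterozygote values below wild type, where 5.12% of all tested genes were, at 21.6 ± 0.627 and 15.8 ± 6.34 FPKM. The other prolyl hydroxylase P4ha1 was at 62.4 ± 15.0 and 34.3 ± 16.1 FPKM, with overlap, and the collagen chaperone Serpinh1 at 554 ± 113 and 435 ± 131 FPKM. For the lysyl hydroxylases Plod1 and Plod2 it was -0.28 (SE 0.20) and -0.27 (SE 0.29) as log2 fold change. Without heterozygote replicate 2 these were -0.15 for P4ha2, -0.51 for P4ha1, -0.12 for Serpinh1, -0.08 for Plod1 and 0.06 for Plod2, and the median of the list was 0.10.

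Proteases gave 0 calls among 6 tested of 7. The gelatinases Mmp9 (3.04 ± 0.365 and 5.67 ± 0.709 FPKM) and Mmp2 (91.8 ± 9.25 and 133 ± 29.8 FPKM) and the membrane protease Mmp14 (16.2 ± 0.671 and 25.4 ± 6.17 FPKM) had all heterozygote values above wild type. The convertase Furin had all below (16.5 ± 0.159 and 15.0 ± 0.603 FPKM), where over all tested genes 7.80% lay above and 5.12% below. The log2 fold change of Bmp1 was 0.18 (SE 0.19), or 0.37 without heterozygote replicate 2, and the median of the list 0.35 and 0.53.

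Among the 44 collagen genes in the files Col6a1 had rank 5 by FPKM, and rank 4 in heterozygote replicate 2. Col6a2 had rank 8 in every library and Col6a6 ranks between 18 and 24. Collagen VI made up 12.5% to 13.7% of all collagen FPKM in wild type and 11.4% to 12.8% in heterozygotes, with overlap. Of the 24 other collagens tested 0 were called, 4 had all heterozygote values above wild type (Col1a1, Col1a2, Col3a1 and Col14a1) and 1, Col12a1, all below, where 7.80% and 5.12% of all tested genes did. Their median log2 fold change was 0.10, or 0.33 without heterozygote replicate 2. For the interstitial collagen genes Col3a1 and Col1a1 the log2 fold change was 0.88 (SE 0.24) and 0.89 (SE 0.26), larger than for Col6a1 and Col6a2. It was 0.59 (SE 0.23) for Col1a2 and 0.37 (SE 0.16) for Col14a1. The ratio of Col6a1 to Col1a1 was 0.333, 0.256 and 0.295 in wild type and 0.245, 0.203 and 0.196 in heterozygotes, lower in each heterozygote library. This ratio carries the difference of Col1a1 itself, and no share over other pairs of genes is given beside it. Col5a1, in contrast, had nearly the same pattern as Col6a1, 0.014 log2 units apart. None of these differences from the collagen VI chains was tested.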

How the data were processed

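RNA of 6 aortic libraries was selected on poly-T beads, per the labels' protocols, and the authors deposited FPKM-type values, 1 file per library. HISAT2 2.1.0, Bowtie2 2.2.3, TopHat2 and GRCm38 are named in the submitters' processing notes without a role. What counted the reads, over which annotation, and as reads or fragments is not given in the sources used here. Each value times the GENCODE M21 exon-union length gave a whole multiple of a library step, within 0.01 reads, for 94.8% to 95.2% of genes under 30 reads, and the reads and depths come from that step. Groups and numbers follow the titles. The headers in the heterozygote files carry other numbers, and the group is the same.

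The 12620 genes that reached 1 FPKM in 3 or more libraries were tested with limma 3.58.1 (R 4.3.3) with a mean-variance trend on log2(FPKM + 1), heterozygote minus wild type, no covariate, Benjamini-Hochberg threshold 0.05. A fold change on this scale understates that of low genes. The procedure was tested on simulated data. Python 3.11.15, numpy 2.4.6, pandas 2.3.3 and matplotlib 3.10.9 were used otherwise.

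Members, lists and tests were chosen with earlier results of these data known. Named were all chains, up to 5 tested genes with the smallest p per list, the 5 genes closest in pattern to each chain without predicted genes, and tested protein-coding neighbours within 300 kb. Alternatives were a pseudocount of 0.1, no filter, median-ratio scaling, a replicate block, each library left out, limma voom on recovered reads, the white adipocyte level as a covariate and principal transcript lengths. 1 marker list fixed with the others is not reported here.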

Additional observations from a re-analysis of the deposited data

How the results depend on the processing

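The log2 fold changes of Col6a1, Col6a2, Col6a5 and Col6a6 kept their direction and stayed uncalled under all 12 alternatives, from 0.32 to 0.64, 0.21 to 0.61, 0.29 to 0.87 and 0.97 to 1.26. The limma adjusted p of Col6a6 ran from 0.0578 with the adipocyte covariate to 1.00. Col6a3 reversed under 4 of 12, at -0.0051 with the adipocyte covariate and within -0.058 to 0.27 over the libraries left out. The cause was not tested. With the adipocyte covariate the unadjusted limma p was under 0.05 for 2287 of all tested genes, against 820 in the main fit. Over all genes 0 were called under 8 alternatives, and 0 to 1 when a library was left out: Zbtb16 without heterozygote replicate 1, Nr1d1 without heterozygote replicate 3, Gm17720 without wild type replicate 1 and Trbd1 without wild type replicate 2. With no filter 1795 genes had all heterozygote values above wild type, against 984, since more genes entered. With median-ratio scaling 903 genes had all above and 841 all below, against 984 and 646, so the background shares depend on the scaling. With principal transcript lengths Col6a2 to Col6a1 was 1.16 in wild type and 1.11 in heterozygotes, and Col6a3 to Col6a1 0.311 and 0.240, which follows from the lengths. Deviations of same-numbered libraries from their group means correlated at 0.508, -0.088 and -0.342, and wild type replicate 3 correlated best with heterozygote replicate 2 (0.551). Both had the highest white adipocyte sum of their group, so these correlations cannot show whether libraries were handled in pairs. With the replicate block 0 genes were called and the log2 fold changes were unchanged, at 1.01 (SE 0.10) for Col6a6. Depth limits Col6a4, with 11 to 29 reads per library.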
